A study of Arabidopsis thaliana with 32 samples.

Results

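The loci described here kept a difference between Sku6 and wild-type Arabidopsis roots in most of the settings in which both were grown. A locus was taken if the authors' deposited tables of Sku6 against Col-0 listed it in at least 3 of 4 comparisons and the sign of its log2 fold change was the same in each of them. Loci near the start of chromosome 2 (starts below 3.121 Mb), where the gene altered in Sku6 lies, a germin-like gene cluster of chromosome 5 and 7 salicylate-related genes were left out. Of 67 loci listed in 3 or 4 of these comparisons, 7 had mixed signs, and of the other 60, 6 lay in the chromosome 2 stretch, 2 in the germin-like cluster and 5 among the salicylate genes. The remaining 47 loci are the members, out of 1176 loci listed in any Sku6-to-Col-0 comparison and 4802 listed in any of the authors' 12 comparisons. The members were thus chosen by the measured genotype differences, which are given below as a description, with no test.

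RNA of whole Arabidopsis thaliana roots was sequenced, with 4 samples in each of 8 groups. Each group was wild-type Col-0 or the mutant Sku6, light-grown for 4 or 8 days on plates of gelled medium, in spaceflight on the International Space Station or in a ground chamber that repeated the station's conditions 48 h later. A sample pooled 5 to 8 roots at 4 days and 2 to 3 roots at 8 days, all from seedlings fixed in RNAlater. The labels give Sku6 as a single line, and its crossing history is not given in the sources used here, so the sku6 allele and any other sequence difference of that line cannot be told apart. SPR1, the gene altered in sku6 mutants, was listed for 4-day ground roots at 7.21 FPKM in Sku6 and 1262 FPKM in Col-0 in the authors' deposited table, and was lower in all 4 comparisons. FPKM counts fragments per length of transcript and per mapped fragment total. The deposited tables hold 1 FPKM value per group, no value per sample, and nothing above a q-value of 0.05, so no spread can be given, the depth is unknown, and a locus that is not listed is not shown to be unchanged.

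SPR1 is a small protein bound to growing microtubule ends, and its loss makes root cells twist and roots skew as they grow along a surface. Plant immunity has a cell-surface layer, in which peptides such as those cut from PROPEP proteins alarm neighbouring cells through receptor kinases, and a salicylate layer, in which the NPR proteins sense the hormone: NPR1 activates defence genes, and NPR3 and NPR4 hold them back. Phi-class glutathione transferases and thioredoxin-dependent peroxidases detoxify reactive compounds, and small hydrophilic proteins such as KIN1 accumulate in cold and drought.

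The sequences below are those of 3 members that lie close together on chromosome 5 and of the precursor gene of a defence peptide. They come from the RefSeq genome TAIR10.1. The promoters run from 250 bases before to 50 bases after the annotated start of the gene, on the strand of the gene. Capitals mark the W-box core, TTGAC or its reverse complement GTCAA, which is the core of the element that WRKY transcription factors bind.
PP2-A6 promoter, chr5:18193279-18193578, minus strand: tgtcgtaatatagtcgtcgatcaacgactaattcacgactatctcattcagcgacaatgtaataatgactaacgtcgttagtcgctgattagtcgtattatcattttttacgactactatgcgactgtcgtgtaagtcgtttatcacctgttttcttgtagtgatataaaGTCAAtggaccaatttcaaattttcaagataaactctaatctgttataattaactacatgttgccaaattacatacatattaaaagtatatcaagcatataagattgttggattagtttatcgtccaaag
PP2-A8 promoter, chr5:18189474-18189773, minus strand: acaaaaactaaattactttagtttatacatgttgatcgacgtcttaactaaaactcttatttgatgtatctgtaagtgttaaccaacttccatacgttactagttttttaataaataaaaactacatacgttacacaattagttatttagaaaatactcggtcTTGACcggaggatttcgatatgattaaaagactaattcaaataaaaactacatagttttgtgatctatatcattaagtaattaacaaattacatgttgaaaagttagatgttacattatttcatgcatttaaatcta
NPR3 promoter, chr5:18228518-18228817, plus strand: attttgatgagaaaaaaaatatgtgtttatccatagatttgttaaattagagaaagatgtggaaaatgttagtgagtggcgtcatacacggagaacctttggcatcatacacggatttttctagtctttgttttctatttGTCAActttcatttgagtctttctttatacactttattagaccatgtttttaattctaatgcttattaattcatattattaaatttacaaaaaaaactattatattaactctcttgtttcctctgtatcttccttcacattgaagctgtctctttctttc
PROPEP2 promoter, chr5:25934318-25934617, plus strand: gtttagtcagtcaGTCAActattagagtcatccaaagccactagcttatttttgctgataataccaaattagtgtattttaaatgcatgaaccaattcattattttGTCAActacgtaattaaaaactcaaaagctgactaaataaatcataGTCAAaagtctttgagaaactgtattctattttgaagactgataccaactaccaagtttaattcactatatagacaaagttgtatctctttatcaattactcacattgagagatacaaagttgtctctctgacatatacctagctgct

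Of the 47 members, 42 were higher and 5 were lower in Sku6, and 10 were listed in all 4 comparisons, 9 of them higher. On the ground at 4 days, 45 members were listed, 40 higher and 5 lower, and over all loci the authors tested 2.93% were listed there, 1.45% higher and 1.48% lower. In flight at 4 days, 39 members were listed, 36 higher and 3 lower, beside 2.02% of all tested loci, 1.55% higher and 0.473% lower. On the ground at 8 days, 27 members were listed, 23 higher and 4 lower, beside 1.34% of all tested loci, 0.729% higher and 0.608% lower. In flight at 8 days, 40 members were listed, 36 higher and 4 lower, beside 1.4% of all tested loci, 1.03% higher and 0.371% lower. The rule used these comparisons, so nothing is read from these shares. The authors' q-value reached 0.0495 at most among the members' 151 entries.

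The differences were mostly modest and mostly in well expressed genes. In the authors' deposited tables, 53 of the 151 entries had a log2 fold change of at least 1 in size and 98 were smaller. For 9 members every listed value was at least 1 in size, and for 25 members none was. The median deposited log2 fold change of the members was 0.76 on the ground at 4 days, 0.87 in flight at 4 days, 0.68 on the ground at 8 days and 0.65 in flight at 8 days. The same median over all listed loci was -0.37, 0.66, 0.46 and 0.43. A total of 23 members reached 100 FPKM in a group, and 2 stayed below 5 FPKM in every group. In whole roots, a change in the number of cells of a type and a change in RNA per cell cannot be told apart.

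**Figure D1:**
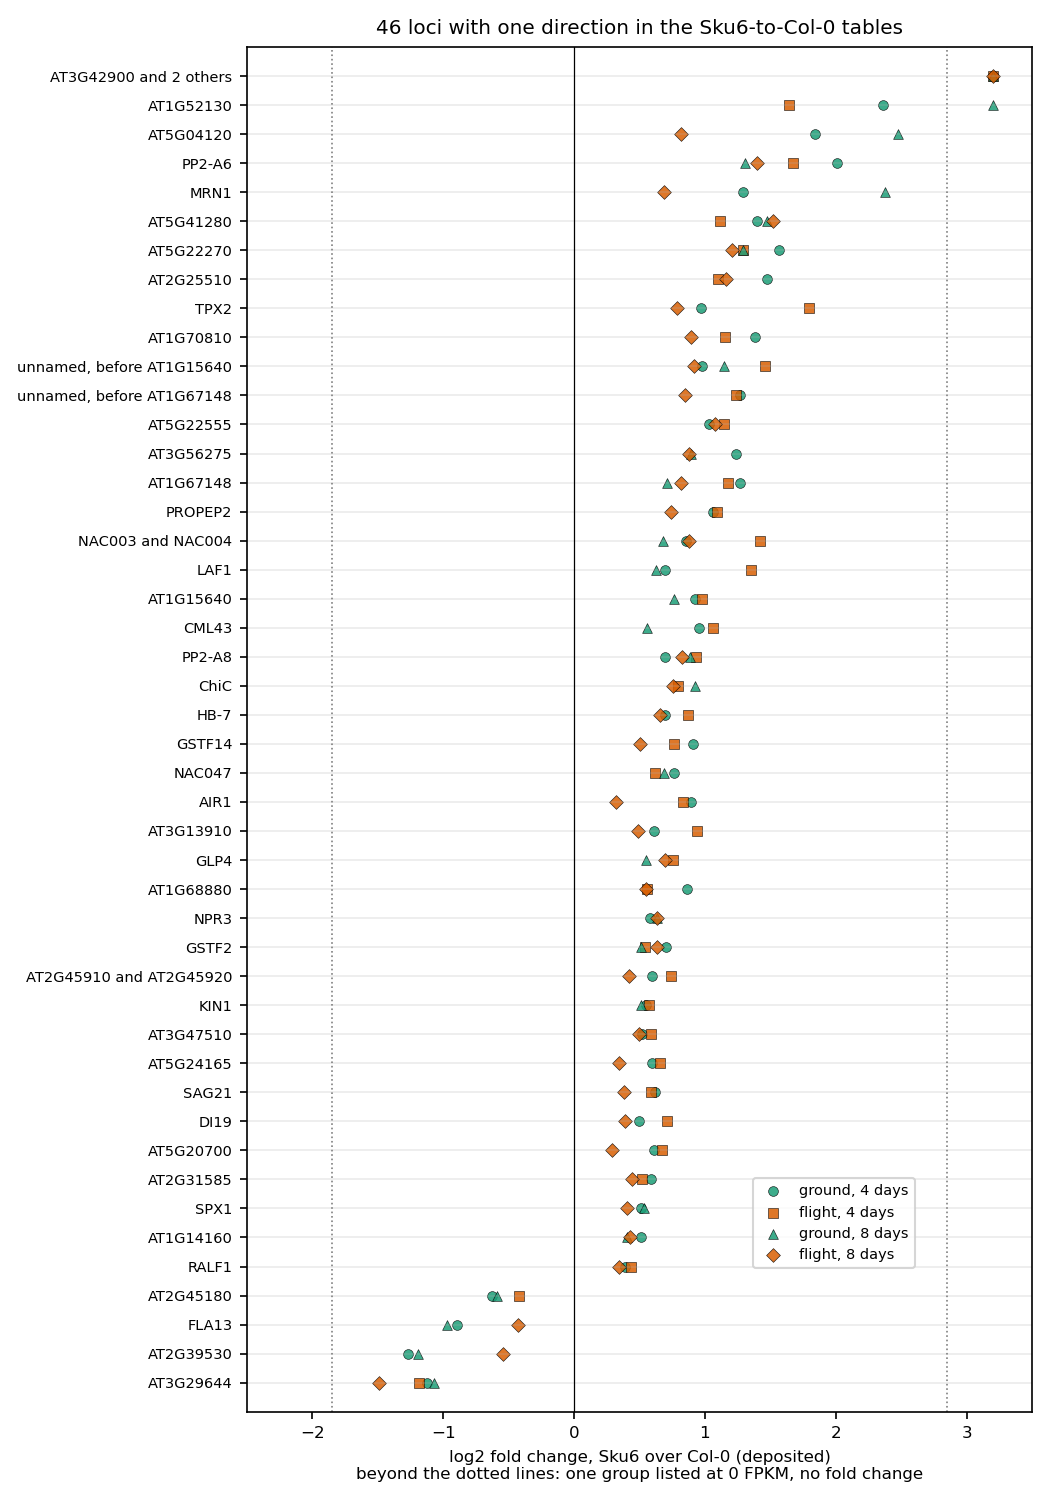
Deposited log2 fold change (Sku6 over Col-0, horizontal axis) of 46 member loci (vertical axis) in the 4 comparisons, with a point for each comparison that listed it. Points beyond the dotted lines stand for a comparison with a genotype listed at 0, where no fold change exists: all those of the AT3G42900 entry and 1 of AT1G52130. The other points lie on a single side of 0 for each locus, as the rule requires, and the points of AT5G41280 lie much closer together than those of MRN1 or AT5G04120.

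The 3 neighbours on chromosome 5, PP2-A6, PP2-A8 and NPR3, were all higher in Sku6, and of these NPR3 is a gene of defence signalling. PP2-A6 (AT5G45080, chromosome 5, 18191355 to 18193328) encodes a protein of the family of phloem protein 2, a lectin of the phloem sap. The authors' deposited tables gave PP2-A6 as 2.09 FPKM in Col-0 and 8.42 in Sku6 on the ground at 4 days, 3.31 and 10.6 in flight at 4 days, 4.64 and 11.5 on the ground at 8 days, and 5.54 and 14.6 in flight at 8 days. Every Sku6 level lay above every Col-0 level, and the log2 fold changes were 2.01, 1.67, 1.3 and 1.4. PP2-A6 was also listed in no flight-to-ground and no 8-to-4-day comparison. PP2-A8 (AT5G45070, chromosome 5, 18187630 to 18189523), of the same family, was deposited in the same order at 16.8 and 27.3, 10.3 and 19.6, 9.10 and 16.8, and 9.01 and 16.0 FPKM. Its levels in the genotypes overlap across settings, since Col-0 on the ground at 4 days was as high as Sku6 on the ground at 8 days, while within each setting Sku6 was higher by 0.69, 0.94, 0.89 and 0.82 on the log2 scale in the deposited tables. NPR3 (AT5G45110, chromosome 5, 18228768 to 18231588), a receptor for salicylate that holds back defence genes, was deposited at 12.1 and 18.1 FPKM on the ground at 4 days, 8.80 and 13.6 on the ground at 8 days, and 10.1 and 15.7 in flight at 8 days. NPR3 was higher in Sku6 by a nearly constant amount, 0.58, 0.63 and 0.63 in deposited log2 fold change, and was not listed in flight at 4 days.

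The locus of PP2-A8 starts 3.76 kb from that of PP2-A6 and 41.2 kb from that of NPR3. In a window that spans them and 20 kb on either side, the TAIR10.1 annotation holds 22 genes. Of these, 3 were listed in a Sku6-to-Col-0 comparison, the members themselves, and 6 in any of the authors' 12 deposited tables. PP2-A7, which the annotation places between PP2-A6 and NPR3, was not listed. The coding sequences of PP2-A8 and PP2-A6 share 64.7% of the bases of the longer one.

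**Figure D2:**
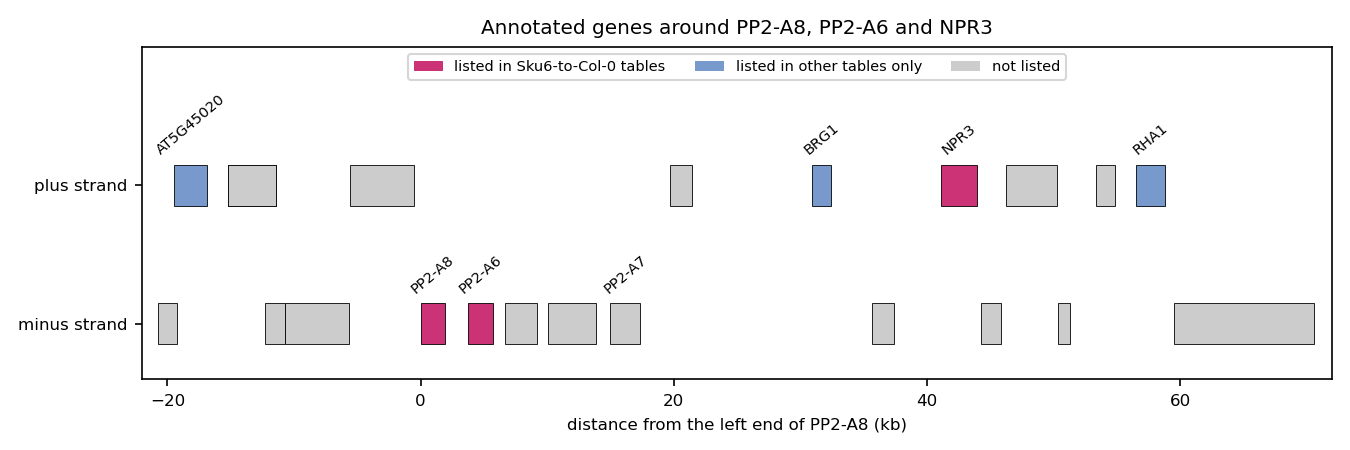
Annotated genes (boxes, by strand) around PP2-A8, PP2-A6 and NPR3, drawn by distance in kb from the left end of PP2-A8 (horizontal axis), in red where a Sku6-to-Col-0 comparison listed them, in blue where only another comparison did and in grey where none did. The 3 genes in red, around which the window was drawn, sit among 22 annotated ones, and PP2-A7 between them was not listed. AT5G06695 shares the box of AT5G45030, which it overlaps.

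Besides NPR3, members with a known part in defence were a peptide precursor, a calcium sensor and a chitinase. PROPEP2 (AT5G64890) encodes the precursor of a peptide that alarms neighbouring cells after damage. The authors' deposited tables gave it 20.5 FPKM in Col-0 and 43.5 in Sku6 on the ground at 4 days, 14.2 and 30.4 in flight at 4 days, and 22.1 and 36.8 in flight at 8 days, with 28.4 in Sku6 on the ground at 8 days and no Col-0 value there. The log2 fold changes were 1.06, 1.10 and 0.74, and every Sku6 level lay above every Col-0 level in hand. CML43 (AT5G44460), a calmodulin-like calcium sensor, was deposited at log2 fold changes of 0.96 on the ground at 4 days, 1.06 in flight at 4 days and 0.56 on the ground at 8 days. ChiC (AT4G19810), a chitinase that cuts a polymer of fungal walls, was higher by 0.80 in flight at 4 days, 0.76 in flight at 8 days and 0.92 on the ground at 8 days. On the ground at 4 days the deposited ChiC levels, taken from other comparisons, were 13.1 FPKM in Col-0 and 13.0 in Sku6. AT5G41280, annotated as related to receptor-like kinases, fell with age and kept its gap between genotypes. Its deposited levels were 6.79 FPKM in Col-0 and 17.8 in Sku6 on the ground at 4 days, 9.35 and 20.1 in flight at 4 days, 2.26 and 6.27 on the ground at 8 days, and 1.48 and 4.20 in flight at 8 days. The 4 log2 fold changes lay between 1.11 and 1.52.

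Among redox and stress proteins, TPX2 (AT1G65970), here the thioredoxin-dependent peroxidase 2 and not the spindle protein of the same name, was highest in Sku6 in flight at 4 days. The authors' deposited tables gave 340 FPKM in Col-0 and 665 in Sku6 on the ground at 4 days, 401 and 1396 in flight at 4 days, 423 and 724 in flight at 8 days, and 387 in Sku6 on the ground at 8 days. The log2 fold changes were 0.97, 1.80 and 0.79. The coding sequence of TPX2 is 91.6% identical to that of TPX1, which was not listed, so fragments of the pair could have been split between them, and the deposited locus of TPX2 is 6.65 times as long as the gene. GSTF2 (AT4G02520), a phi-class glutathione transferase, was deposited at 155 and 251 FPKM on the ground at 4 days, 228 and 331 in flight at 4 days, 230 and 329 on the ground at 8 days and 292 and 451 in flight at 8 days. It was higher in Sku6 in all 4 settings, by 0.71, 0.54, 0.51 and 0.64 on the log2 scale. GSTF2 shares 94.5% of its coding bases with GSTF3 (AT2G02930), which was not listed. The gene number of GSTF3 comes before that of SPR1 (AT2G03680) on chromosome 2. Whether fragments of GSTF2 and GSTF3 were split between them was not tested. GSTF14 (AT1G49860), of the same class, was higher by 0.91 on the ground at 4 days, 0.77 in flight at 4 days and 0.50 in flight at 8 days in the deposited tables, and was not listed on the ground at 8 days.

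KIN1 (AT5G15960), a small hydrophilic protein induced by cold and abscisic acid, was deposited at 103 and 149 FPKM in Col-0 and Sku6 on the ground at 4 days, 64.7 and 95.7 in flight at 4 days, 246 and 351 on the ground at 8 days, and 64.8 and 81.7 in flight at 8 days. The gap of 0.51 to 0.57 on the log2 scale in the 3 settings that listed it was small beside the range that place and age gave this gene. KIN1 and its tandem copy KIN2 share 95% of their coding bases, and KIN2 was listed in 1 Sku6-to-Col-0 comparison, at 0.45 on the ground at 4 days. SAG21 (AT4G02380), a protein related to those of late seed development and induced by oxidative stress, was among the most abundant members. Its deposited levels were 803 and 1251 FPKM on the ground at 4 days, 926 and 1382 in flight at 4 days, and 636 and 823 in flight at 8 days, with log2 fold changes of 0.62, 0.59 and 0.38. HB-7 (AT2G46680), a homeodomain transcription factor induced by drought and abscisic acid, was higher in Sku6 by 0.70, 0.87 and 0.65 in the deposited tables of 4-day ground, 4-day flight and 8-day flight roots. DI19 (AT1G56280), named for its induction by drought, was higher by 0.49, 0.71 and 0.39 in the same settings. GLP4 (AT1G18970), a germin-like protein outside the cluster that was left out, was higher by 0.76 in flight at 4 days, 0.70 in flight at 8 days and 0.55 on the ground at 8 days.

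Besides HB-7, further members encode transcription factors. A deposited entry that merges NAC003 and NAC004, neighbouring NAC-domain genes with 72.5% identical coding bases, was at 18.6 and 33.6 FPKM in Col-0 and Sku6 on the ground at 4 days, 21.4 and 57.4 in flight at 4 days, 22.4 and 35.8 on the ground at 8 days and 21.3 and 38.5 in flight at 8 days. Col-0 stayed between 18.6 and 22.4 FPKM while Sku6 moved between 33.6 and 57.4, and the deposited entry does not say which of the genes carried the difference. NAC047 (AT3G04070), another NAC-domain factor, was higher by 0.76, 0.62 and 0.69 in the deposited tables of the 4-day ground, 4-day flight and 8-day ground roots. LAF1 (AT4G25560), a MYB factor of phytochrome A signalling, was higher by 0.69, 1.35 and 0.62 in the same settings. AT1G68880, a basic leucine-zipper factor, was higher by 0.87 on the ground at 4 days and by 0.55 in flight at both ages in the deposited tables, and its levels on the ground at 8 days, where it was not listed, were 175 FPKM in Col-0 and 156 in Sku6.

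**Figure D3:**
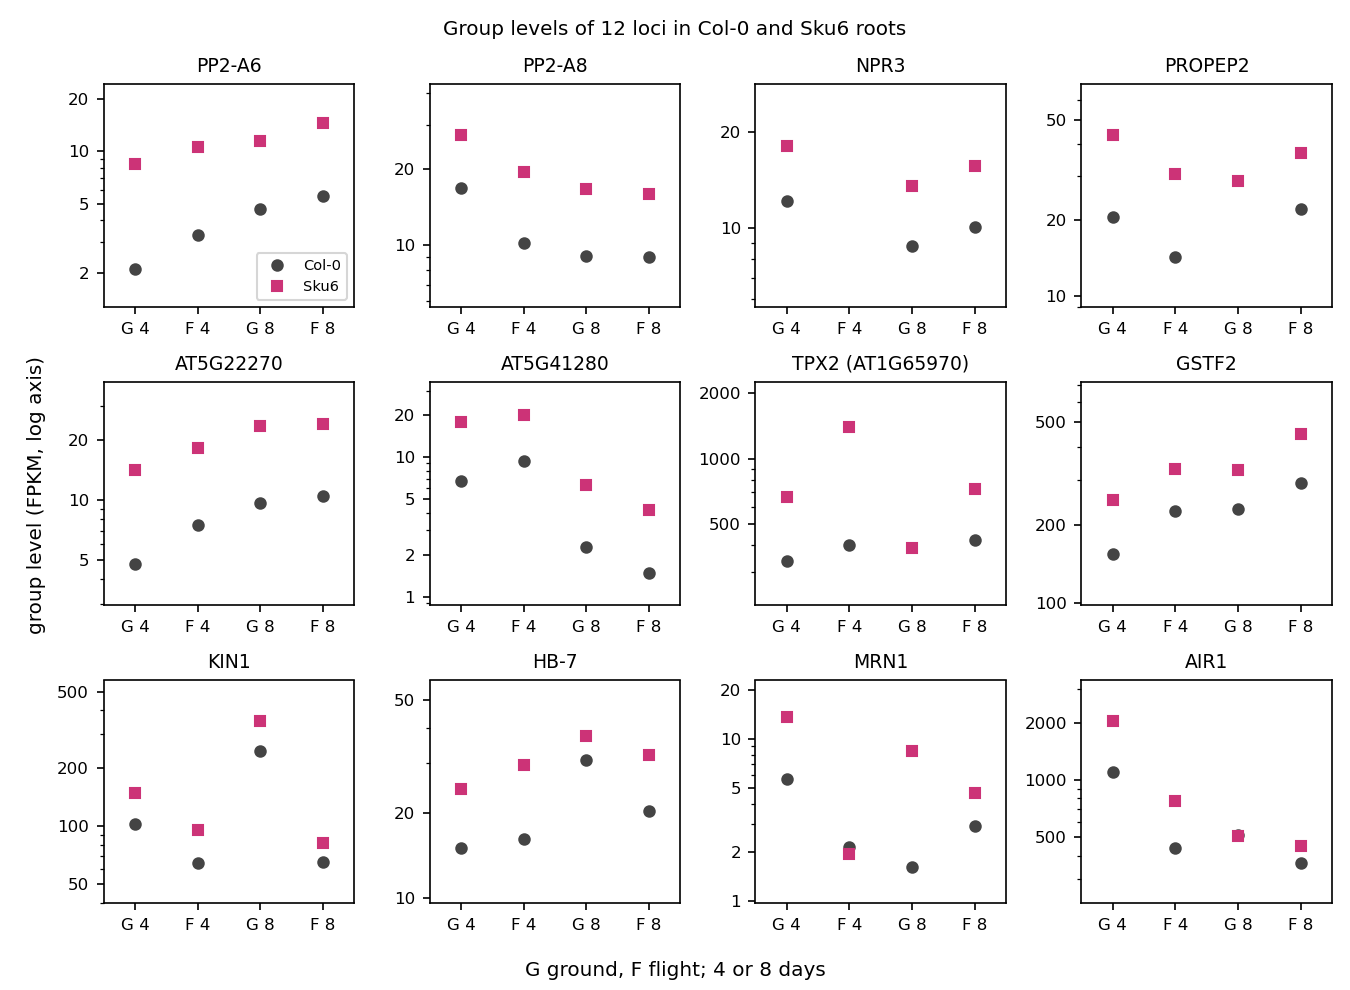
Deposited FPKM (vertical axis, log scale) of 12 members in the 8 groups, with ground and flight at 4 and 8 days along the horizontal axis and a symbol for each genotype. No error bars can be drawn, since there is 1 value per group. For PP2-A6 every Sku6 symbol lies above every Col-0 symbol.

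Further members include genes of growth, wall and metabolism. They are given together with 3 of the 5 lower members, of which AT2G39530 and AT2G45180 have only a family annotation. RALF1 (AT1G02900), a secreted peptide that raises the pH around root cells and restrains their elongation, was higher in Sku6 by 0.39 on the ground at 4 days, 0.43 in flight at 4 days and 0.35 in flight at 8 days, from deposited levels of 511, 438 and 538 FPKM in Col-0. These are the smallest differences of any member by mean log2 fold change. AIR1 (AT4G12550), a gene found as auxin-induced in root cultures, had the highest level of any member. The deposited tables gave it 1108 FPKM in Col-0 and 2046 in Sku6 on the ground at 4 days, 437 and 776 in flight at 4 days, and 366 and 449 in flight at 8 days, with log2 fold changes of 0.90, 0.83 and 0.32. AIR1 shares 93.2% of its bases with the neighbouring AT4G12545, listed at 0.38 on the ground at 4 days. SPX1 (AT5G20150), which senses the phosphate status of the cell and holds back the phosphate starvation response, was higher by 0.51 on the ground at 4 days, 0.53 on the ground at 8 days and 0.40 in flight at 8 days in the deposited tables.

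FLA13 (AT5G44130), a fasciclin-like arabinogalactan protein of the cell surface, was lower in Sku6. The deposited levels were 138 FPKM in Col-0 and 73.7 in Sku6 on the ground at 4 days, 63.0 and 52.0 in flight at 4 days, 52.6 and 26.8 on the ground at 8 days and 42.8 and 31.5 in flight at 8 days. The differences on the ground, -0.89 and -0.97 on the log2 scale, were larger in size than that in flight at 8 days, -0.43, and the difference between places was not tested. AT2G39530, annotated in the same uncharacterized family (UPF0497) as AT1G14160, had the same form. Its deposited levels were 201 and 82.5 FPKM on the ground at 4 days, 178 and 149 in flight at 4 days, 102 and 44.1 on the ground at 8 days and 77.3 and 52.0 in flight at 8 days. The ground log2 fold changes were -1.27 and -1.19, and that in flight at 8 days was -0.54. AT1G14160 went the other way, higher in Sku6 by 0.51, 0.40 and 0.43 in the deposited tables of 4-day ground, 8-day ground and 8-day flight roots. AT2G45180, annotated in a superfamily that includes lipid-transfer proteins, was lower at -0.62, -0.42 and -0.59 in the deposited tables of 4-day ground, 4-day flight and 8-day ground roots.

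MRN1 (AT5G42600), marneral synthase, makes a root triterpene. The authors' deposited tables gave 5.67 FPKM in Col-0 and 13.7 in Sku6 on the ground at 4 days, 1.62 and 8.40 on the ground at 8 days, and 2.90 and 4.64 in flight at 8 days. Its log2 fold changes were 1.29, 2.38 and 0.69, and in flight at 4 days, where MRN1 was not listed, the levels from other comparisons were 2.16 and 1.96 FPKM. AT5G04120, of the phosphoglycerate mutase family, was deposited at 29.4 and 105 FPKM on the ground at 4 days, 24.3 and 135 on the ground at 8 days and 77.0 and 136 in flight at 8 days. Its Sku6 levels lay between 105 and 136 FPKM and its Col-0 level in flight lay above those on the ground, so the log2 fold changes ran from 2.48 on the ground at 8 days to 0.82 in flight at 8 days. AT1G52130, a lectin-like gene, had a mean log2 fold change of 2.00 over the 2 comparisons with a fold change, on very low levels, and 1.01 with 1 FPKM added to both groups. Its deposited values were 0.378 and 1.94 FPKM on the ground at 4 days and 0.731 and 2.28 in flight at 4 days, and it was listed at 0 in Col-0 and 1.47 in Sku6 on the ground at 8 days.

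Several members are short genes annotated as uncharacterized. AT5G22270, whose coding sequence is 282 bases long, was deposited at 4.78 FPKM in Col-0 and 14.2 in Sku6 on the ground at 4 days, 7.50 and 18.4 in flight at 4 days, 9.64 and 23.6 on the ground at 8 days and 10.4 and 24.1 in flight at 8 days. It rose with age on the ground in both genotypes, and its log2 fold changes between genotypes lay between 1.21 and 1.57. AT2G25510 was higher by 1.48, 1.10 and 1.17, and AT5G22555 by 1.03, 1.15 and 1.08, in the deposited tables of 4-day ground, 4-day flight and 8-day flight roots. AT1G70810, annotated with a calcium-dependent lipid-binding domain, was higher by 1.38, 1.15 and 0.89 in the same settings. AT1G67148 and an unnamed locus 1.92 kb away, which lies over the annotated noncoding RNA gene AT1G08903, were higher together. AT1G67148 was listed in all 4 deposited comparisons, at 1.27 on the ground at 4 days, 1.18 in flight at 4 days, 0.71 on the ground at 8 days and 0.82 in flight at 8 days, and the unnamed locus at 1.27 on the ground at 4 days, 1.23 in flight at 4 days and 0.85 in flight at 8 days. Another unnamed locus spans AT1G15610, AT1G15620, AT1G15625 and AT1G15630 and starts 8.21 kb from AT1G15640. Its deposited log2 fold changes in the same order were 0.98, 1.46, 1.15 and 0.92, and those of AT1G15640 were 0.92 on the ground at 4 days, 0.98 in flight at 4 days and 0.76 on the ground at 8 days.

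The transcribed pseudogene AT3G56275 was higher by 1.24, 0.89 and 0.88 in the deposited tables of 4-day ground, 8-day ground and 8-day flight roots. The noncoding RNA AT2G31585 was higher by 0.59, 0.52 and 0.44 in those of 4-day ground, 4-day flight and 8-day flight roots. AT3G47510, AT3G13910, AT5G24165, AT5G20700 and an entry that merges the U-box genes AT2G45910 and AT2G45920 complete the account. In the deposited tables their log2 fold changes lay between 0.29, for AT5G20700 in flight at 8 days, and 0.94, for AT3G13910 in flight at 4 days. The locus of the U-box entry also overlaps AT2G45930, on the opposite strand, and the microRNA gene MIR5655. Whether fragments of these enter its level was not tested.

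The entry that merges the pseudogenes AT3G42900, AT3G42913 and AT3G42927 on chromosome 3 was listed at 0 in Col-0 in all 4 comparisons and at 1.84, 2.08, 1.52 and 2.67 FPKM in Sku6 in the authors' deposited tables. No fold change is given for it, and whether the Sku6 genome differs from TAIR10 there was not tested. Its locus also overlaps the pseudogenes AT3G42910, AT3G42916, AT3G42920, AT3G42922 and AT3G42924, and which of them gave the fragments is not known. AT3G29644, a noncoding RNA gene, was the only member lower in Sku6 in all 4 deposited comparisons, at 27.6 and 12.7 FPKM on the ground at 4 days, 30.8 and 13.3 in flight at 4 days, 33.8 and 16.0 on the ground at 8 days and 52.5 and 18.7 in flight at 8 days. Every Sku6 level lay below every Col-0 level. The counting is not stated to use strand, so reads from a gene and an overlapping one on the opposite strand cannot be told apart there. The deposited loci of 7 members with a single gene name, GSTF14, AT5G04120, TPX2, AT3G29644, AT5G22555, DI19 and SAG21, are more than 2 times as long as the annotated gene, from 3.55 times for GSTF14 to 47.3 times for SAG21, and whether fragments of neighbouring genes enter their levels was not tested.

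Gene length, position and promoter letters were described for the members as well. Of the 41 members with a single gene name, 38 are protein-coding in TAIR10.1, and their median coding length was 625.5 bases. The median was 885 bases over the other 1039 single protein-coding genes listed in the 4 Sku6-to-Col-0 comparisons and 1047 bases over all 27444 protein-coding genes. The members lie on all 5 chromosomes, with the stretches of chromosomes 2 and 5 that the rule left out missing, 14, 7, 6, 5 and 15 of them from chromosome 1 to chromosome 5. In the 300-base promoters, the W-box core was found in 24 of 38 member promoters, 63.2%, and in 50.5% of all 27443 promoters of protein-coding genes. The core of the abscisic acid element, ACGTG or CACGT, was found in 7 member promoters, 18.4%, and in 26.7% of all. The core of the dehydration element, CCGAC or GTCGG, was found in 2, 5.26%, and in 15% of all. PROPEP2 has 3 W-box cores in the printed stretch, and PP2-A6, PP2-A8 and NPR3 have 1 each. Such matches are a description of letters only.

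For the 37 members listed in 3 comparisons, the missing comparison can be read in part from other tables. Both levels were in hand for 20 of them, and in 13 Sku6 lay on the same side as in the listed comparisons, by 0.06 to 0.62 on the log2 scale. In 7 it lay on the other side. These were DI19, AT1G68880, AIR1, AT5G24165 and AT5G20700 on the ground at 8 days, ChiC on the ground at 4 days and MRN1 in flight at 4 days. The widest was AT5G20700, with deposited levels of 615 FPKM in Col-0 and 523 in Sku6 on the ground at 8 days. None of these pairs of levels passed the authors' threshold, and the members are persistent only in the sense of the rule.

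The comparisons of flight with ground roots ask which members also respond to the place of growth. They share groups with the comparisons that chose the members, so a Sku6 or Col-0 level enters both. In Col-0 at 4 days, 14 members were listed, 29.8% of 47, beside 7.21% of all tested loci. Of the 14, 4 were higher in flight, beside 3.1% of tested loci, and 10 were lower, beside 4.11%. In Sku6 at 4 days 14 were listed, beside 4.45% of tested loci, with 8 higher beside 2.18% and 6 lower beside 2.28%. In Col-0 at 8 days 17 were listed, 36.2%, beside 4.05%, with 6 higher beside 1.26% and 11 lower beside 2.8%. In Sku6 at 8 days 12 were listed, 25.5%, beside 2.51%, with 8 higher beside 1.08% and 4 lower beside 1.43%. Of the 185 loci listed in exactly 2 genotype comparisons, 41.1%, 38.4%, 40% and 35.7% were listed in the same 4 flight comparisons. Of the 924 loci listed in exactly 1, the shares were 36.9%, 23.8%, 22.6% and 13.9%. Unlike the members, these classes were not filtered by sign or by the loci that the rule left out. Of the 185, 129 had a single sign and were not among the loci left out. The shares of all these classes, the members included, were above those of all tested loci, and the differences between the classes were not tested.

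Only KIN1, GSTF2 and MRN1 were listed in all 4 flight comparisons. KIN1 was lower in flight in each, at -0.67 in Col-0 and -0.64 in Sku6 at 4 days and at -1.94 and -2.10 at 8 days in the authors' deposited tables, with q-values from 0.00185 to 0.00373. GSTF2 was higher in flight in each, by 0.56 and 0.40 at 4 days and 0.33 and 0.46 at 8 days, with q-values from 0.00185 to 0.0386. MRN1 was lower in flight at 4 days, at -1.39 in Col-0 and -2.83 in Sku6. At 8 days the deposited MRN1 value was 0.83 in Col-0 and -0.86 in Sku6, with q-values of 0.0161 and 0.00373, opposite directions whose difference was not tested. AT5G20700 was also called in opposite directions at 8 days, at -0.23 in Col-0 and 0.29 in Sku6 in the deposited tables, with q-values of 0.0386 and 0.0283, again with the difference not tested.

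AIR1 was lower in flight in 3 comparisons, at -1.34 in Col-0 and -1.40 in Sku6 at 4 days and at -0.51 in Col-0 at 8 days in the deposited tables. AT1G68880 was lower in the same 3, at -0.51, -0.82 and -0.36. AT3G47510 was higher in flight in 3, by 0.63 and 0.70 at 4 days and by 0.52 in Sku6 at 8 days. TPX2 was listed in Sku6 alone, 1.06 higher in flight at 4 days and 0.89 at 8 days in the deposited tables, and was not listed in Col-0, where its levels were 340 and 401 FPKM at 4 days. DI19 was likewise listed in Sku6, at 0.42 and 0.50. Whether the response differed between genotypes was not tested for either. SPX1 at 8 days was higher in flight in both genotypes, by 0.59 in Col-0 and 0.46 in Sku6. AT3G56275 at 8 days was lower in both, at -0.67 and -0.68 in the deposited tables, and AT1G14160 at 4 days was lower in both, at -0.77 and -1.17.

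FLA13 fell in flight at 4 days in both genotypes, at -1.16 in Col-0 and -0.52 in Sku6 in the authors' deposited tables. AT2G39530 was higher in flight in Sku6 at 4 days, at 0.83, and lower in Col-0 at 8 days, at -0.41. GSTF14 was higher in flight by 0.55 in Col-0 at 4 days and by 0.41 in Sku6 at 8 days. The unnamed locus over AT1G15610 was lower at -0.82 in Col-0 at 4 days and at -0.50 in Sku6 at 8 days. A further 14 members were listed in 1 flight comparison and 16 in none.

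**Figure D4:**
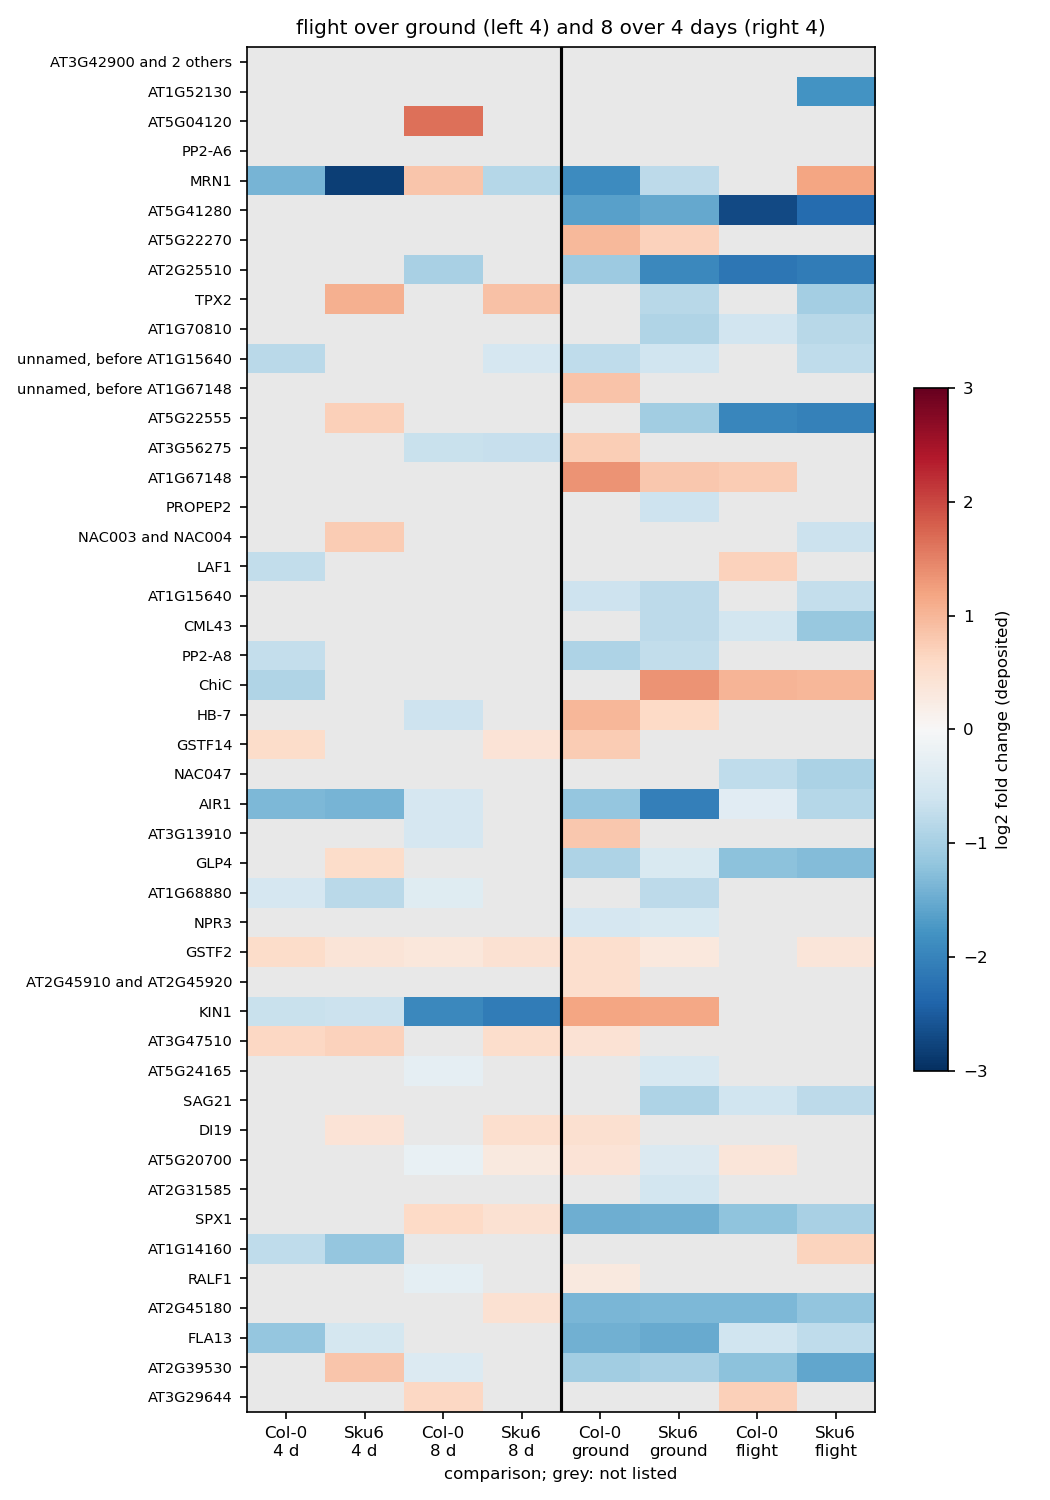
Deposited log2 fold change of 46 members (rows) in the flight-to-ground and the 8-to-4-day comparisons (columns), coloured by direction, with grey cells where a locus was not listed. KIN1 is lower and GSTF2 higher in all 4 flight columns, and PP2-A6 is grey throughout.

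The comparisons of 8-day with 4-day roots listed more of the members, and share groups with the choosing comparisons in the same way. In ground Col-0, 27 members were listed, 57.4%, beside 11.2% of tested loci, with 14 higher at 8 days beside 5.69% and 13 lower beside 5.54%. In ground Sku6, 29 were listed, 61.7%, beside 9.43%, with 6 higher beside 4.77% and 23 lower beside 4.67%. In flight Col-0, 18 were listed, 38.3%, beside 6.78%, with 5 higher beside 3.33% and 13 lower beside 3.45%. In flight Sku6, 22 were listed, 46.8%, beside 8.35%, with 4 higher beside 3.92% and 18 lower beside 4.43%. Of the 185 loci listed in exactly 2 genotype comparisons, 52.4%, 55.1%, 50.3% and 65.4% were listed in these age comparisons, and of the 924 listed in exactly 1, 44.8%, 39.0%, 30.4% and 40.4%. Neither class was filtered as the members were, and how the members' shares compare with those of either class was not tested.

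The members listed in all 4 age comparisons include SPX1, which was lower at 8 days at -1.46 in ground Col-0, -1.44 in ground Sku6, -1.20 in flight Col-0 and -0.98 in flight Sku6 in the authors' deposited tables. AT5G41280 was lower at -1.63, -1.55, -2.71 and -2.30 in the same order, FLA13 at -1.44, -1.52, -0.60 and -0.77, and AT2G45180 at -1.38, -1.35, -1.36 and -1.19. AIR1 was lower at -1.16, -2.05, -0.34 and -0.85, and GLP4 at -0.92, -0.46, -1.24 and -1.30 in the deposited tables. The stress gene KIN1 went the other way on the ground, higher by 1.19 in Col-0 and 1.16 in Sku6, and was not listed in flight. AT5G20700 was the only member called in opposite directions between genotypes with age, at 0.41 in ground Col-0 and -0.43 in ground Sku6 in the deposited tables, with the difference not tested.

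At the edge of the rule stood 7 loci listed in 3 or 4 genotype comparisons with mixed signs. BT1, a BTB and TAZ domain scaffold protein, was higher in Sku6 in flight, by 1.3 at 4 days and 0.79 at 8 days in the deposited tables, and lower on the ground at 8 days, at -0.62. AT1G12805 was lower on the ground, at -1.95 and -1.77, and higher in flight at 8 days, by 1.44. SUS1, a sucrose synthase, was lower on the ground, at -0.75 and -0.52, and higher in flight at 8 days, by 0.46. AT4G38080 was lower in Sku6 at 4 days, at -0.72 on the ground and -0.57 in flight, and higher at 8 days, by 0.32 and 0.33 in the deposited tables. AT3G12965 was higher by 0.36 on the ground at 4 days and 0.35 in flight at 8 days and lower at -0.42 in flight at 4 days, and AT4G29905 and AT5G21020 were lower in Sku6 only on the ground at 8 days, at -0.41 and -0.30. A further 129 loci were listed in exactly 2 comparisons with a single sign. Merged and unnamed loci among them were not ranked, and comparisons with a group at 0 FPKM did not enter the means. Among those with a single gene name, AT3G02480 (1.69 and 3.98), AT1G43590 (-3.73 and -2.11), AT4G10860 (2.45 and 3.17) and AT4G09780 (1.90 and 1.84) had the largest mean deposited log2 fold changes in size. None of these loci is a member.

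Of the gene lists used beside the members, the salicylate and systemic resistance list has 23 genes. In the deposited tables, 6 of them were higher in Sku6 on the ground at 4 days, beside 1.45% of all tested loci. In flight at 4 days 7 were higher, beside 1.55%. On the ground at 8 days 6 were higher, beside 0.729%, and in flight at 8 days 4, beside 1.03%. In each comparison 0 were lower. Genes of the list that no Sku6-to-Col-0 comparison listed include PR1, PR2, PR5, ICS1 and NPR1. Apart from GSTF6 on the ground at 8 days, every gene counted as higher is among the 7 salicylate-related genes that the rule left out. Those genes were known from these same data, so nothing is read from the counts. No member is on the list. Of 13 spiral and tubulin genes, SPR1 was lower in every comparison and TUA3 was lower on the ground at 4 days. Of 7 photosynthesis genes that mark shoot tissue, 5 were higher in Sku6 in flight at 4 days, among them LHCB1.3 at 161 against 94.4 FPKM and RBCS1A at 316 against 200 FPKM in the deposited table. On the ground at 8 days 3 were lower in Sku6, LHCB1.3 at 84.7 against 168 FPKM among them, and in the other 2 settings 0 of 7 were listed. Of 7 root markers, WOX5, the gene of the root stem cell niche, was higher in Sku6 on the ground at 4 days, at 25 against 15.3 FPKM, and TIP2-3 was lower there. TIP2-3 was lower on the ground at 8 days too, SCR was lower in flight at 8 days, at 8.32 against 14.0 FPKM, and 0 of 5 seed storage genes was listed. The rule requires each member to be listed in at least 3 of the 4 settings, which leaves 1 setting free. On the ground at 8 days 20 members were not listed, in flight at 4 days 8, in flight at 8 days 7 and on the ground at 4 days 2. Whether where members were listed goes with shoot tissue was not tested. The part of shoot tissue in any setting was not tested.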

How the data were processed

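Per the labels' protocols, RNA from pooled, dissected roots was made into libraries from 10 ng with the SMART-Seq v4 and Nextera kits, 4 samples in each of 8 groups. The submitters' processing notes name Cuffdiff and Cufflinks, STAR 2.5.1b, Picard, FastQC 0.11.2 and Trimmomatic 0.36, and the build TAIR10, which the authors used before they deposited the tables. How these tools were ordered and set is not given in the sources used here. Per the file headers, each of 12 deposited tables compares a pair of groups and gives a group FPKM, a log2 fold change, a p-value and a q-value. All listed loci have a deposited q-value of at most 0.05, and the authors' smallest p-value, 5e-05, is shared by 108 of the members' 151 entries. There are no values per sample, so the depth and its precision are unknown and no test was added.

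The members, gene lists and tests were chosen with earlier results of these data known. Members were found by the stated rule, and 1 locus, lower in Sku6 and kept in the counts, is not reported here. A group's level is the median over the tables that hold it, and levels of the members seen in several tables differed by a factor of up to 1.04, since the tables were scaled separately. The number of loci tested was worked back from the deposited p-values and q-values, 19464 to 20035 per comparison, with the script tested on simulated data. The files count starts from 0, so 1 was added, and all positions lie within the TAIR10.1 chromosomes, from whose RefSeq annotation names, products and sequences came. Named members are single genes among the 12 highest and the 12 lowest by mean log2 fold change with at least 2 FPKM in a group, those listed in at least 2 flight comparisons, merged entries listed in all 4 genotype comparisons and members starting within 20 kb of another. All mixed-sign loci and 4 of those listed in 2 comparisons were named too, and other members were named to complete the account. Coding identity is the share of identical bases over the longer sequence. Alternatives changed the number of comparisons required, the q-value, the minimum fold change, the FPKM minimum, merged entries and an added FPKM. Python 3.11.15, pandas 2.3.3, numpy 2.4.6 and scipy 1.17.1 were used.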

Additional observations from a re-analysis of the deposited data

How the results depend on the processing

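The number of members depended on the rule. Listing in all 4 comparisons left 10 loci (9 higher, 1 lower), entries with a q-value of at most 0.01 left 21 (18 higher, 3 lower), and entries with a log2 fold change of at least 1 in size left 9 (7 higher, 2 lower). With at least 5 FPKM in a group, or with merged entries left out, 44 remained (39 higher, 5 lower), and with at least 1 FPKM all 47 did. Adding 1 FPKM moved the median log2 fold change on the ground at 4 days to 0.70, reversed 0 of 45 members and shrank AT1G52130 from 2.00 to 1.01. In all, 5 members moved by more than levels differed between tables. Besides AT1G52130, the mean log2 fold change moved from 1.60 to 1.36 for PP2-A6 and from 1.45 to 1.18 for MRN1. For AT5G41280 it moved from 1.38 to 1.14, and for AT5G22270 from 1.34 to 1.23. With a log2 fold change of at least 1 in size, the members called with age were 10 in ground Col-0, 9 in ground Sku6, 8 in flight Col-0 and 10 in flight Sku6. The same minimum left 3 called in flight at 4 days in Col-0, 4 at 4 days in Sku6, 3 at 8 days in Col-0 and 1 at 8 days in Sku6. A q-value of at most 0.01 left 9 called in flight at 4 days in Sku6 in place of 14. No paired analysis was possible because the files carry 1 value per group and no replicate columns, and leaving out each replicate was not possible for the same reason. The depth is unknown.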
